A study of Mus musculus with 6 samples.

Results

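Tensins are the proteins that tie integrins, the receptors with which cells hold the extracellular matrix, to the actin cytoskeleton at focal and fibrillar adhesions. Chromatin at the 4 mouse genes of this family, Tns1, Tns2, Tns3 and Tns4, was described in an assay for transposase-accessible chromatin (ATAC-seq) of kidney cortex, in which a transposase cuts DNA that is not held in closed chromatin. The genes were chosen by name, and for each gene the accessible intervals were taken that overlapped a region from 3 kb upstream of the gene start to the gene end. The family itself was picked because the widest interval of the whole peak list lies in Tns1 and another of the widest in Tns3, so the positions, widths and heights of the intervals are a description of these genes and were not tested. The 4 regions held 92 of 279569 intervals of the list, and those intervals held 1322 of its 749750 summits, where a summit is a local maximum of the signal. Each summit has a fold enrichment, the reads there over the background that the peak caller estimated, and a q, the caller's p-value adjusted over the genome, and an interval takes the values of its strongest summit. The methods print the shift applied to the reads with a positive sign, and whether that sign was used is not known. Since the shift sets where a summit falls, short distances between summits and starts are given as called. Of the 1322 summits, 1275 lay inside the regions.

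The mice were of 2 genotypes. Those of the Acly cKO group carried 2 floxed Acly alleles and Ksp-Cre (Cdh16-Cre), a Cre that recombines in the epithelium of the kidney tubule, so that the deletion of Acly, the gene of ATP citrate lyase, concerns the tubule and not other cells of the kidney. The WT mice were, by the study's methods, Cre-negative littermates with the same floxed alleles, and all libraries carry the treatment label Control. The 6 libraries described here were 3 WT libraries of batches 1, 1 and 2 and 3 Acly cKO libraries of batches 4, 4 and 5, each made from 50000 nuclei by the labels. No batch held both genotypes, and the part of each cannot be told apart. The study used further WT libraries, deposited earlier, and whether their reads entered the peak call described here is not known. Age and sex are not given in the labels. The deposited values come from 1 peak call on pooled reads, the libraries in the pool are not named, the depth of the pool is unknown, and no value belongs to a single library. WT and Acly cKO kidneys were therefore not compared, no value has a replicate error, and the loss of Acly cannot be checked in this list.

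Tns1, Tns2 and Tns3 share an actin-binding part at the front of the protein and a pair of modules at its end, SH2 and PTB, of which the PTB domain binds the tail of β-integrins. Tns4, also called Cten, keeps the end of the protein and lacks the actin-binding part. In the kidney the family is known for cysts in mice without Tns1, and for the nephrotic disease of mice with a defective Tns2, a gene that podocytes use. Tns3 is known for its effect on cell migration and on postnatal growth.

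The sequences below show the DNA under some of the highest summits, because those summits carry the description of each gene, and the DNA just before the annotated gene starts. All were read from GRCm39 and are written 5′ to 3′ on the strand of the gene. Capitals mark AP-1 sites (TGANTCA) and GC-boxes (GGGCGG), on either strand. The highest summits of the family lay in introns, and the windows shown for the widest Tns1 interval, from chr1:74052598-74052698, and for the strongest Tns3 interval, from chr11:8584880-8584980, run 50 bases to either side of the summit.
Tns1 intron 4, 46.0-fold: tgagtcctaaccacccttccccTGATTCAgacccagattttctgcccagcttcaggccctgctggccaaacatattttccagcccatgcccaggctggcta
Tns3 intron 1, 52.7-fold: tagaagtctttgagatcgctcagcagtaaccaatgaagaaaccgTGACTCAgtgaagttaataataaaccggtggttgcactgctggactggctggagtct
The AP-1 match sits at bases 23 to 29 of the Tns1 intron 4 window and at bases 45 to 51 of the Tns3 window, and 8.28% of the windows of this width over the whole list hold such a match. Windows of the same width at the 51.7-fold Tns1 summit and at the 40.8-fold Tns3 summit, also in introns and not printed here, hold none of the 11 motifs searched. The highest summits of Tns2, at chr15:102008968-102009068, and of the interval over the gene start of Tns3, at chr11:8614054-8614154, lay close to the gene start.
Tns2 near the gene start, 34.6-fold: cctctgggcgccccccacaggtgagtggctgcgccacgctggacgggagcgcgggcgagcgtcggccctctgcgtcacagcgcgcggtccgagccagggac
Tns3 near the gene start, 37.3-fold: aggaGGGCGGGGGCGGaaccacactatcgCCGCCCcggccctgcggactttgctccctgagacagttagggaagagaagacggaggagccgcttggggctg
These windows have a GC content of 77.2% and 67.3%, against 55.4% and 45.5% for the windows above them, which lie farther from the gene start. By the annotation the summits near the gene starts also lie in an intron, intron 1 in both genes. The 100 bases before the gene starts come from chr1:74163732-74163831 for Tns1, chr15:102008748-102008847 for Tns2, chr11:8614682-8614781 for Tns3 and chr11:98980145-98980244 for Tns4.
Tns1 before the gene start: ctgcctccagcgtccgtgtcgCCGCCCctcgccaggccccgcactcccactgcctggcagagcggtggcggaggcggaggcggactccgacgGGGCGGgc
Tns2 before the gene start: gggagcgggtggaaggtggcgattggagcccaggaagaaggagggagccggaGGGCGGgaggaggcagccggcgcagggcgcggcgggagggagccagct
Tns3 before the gene start: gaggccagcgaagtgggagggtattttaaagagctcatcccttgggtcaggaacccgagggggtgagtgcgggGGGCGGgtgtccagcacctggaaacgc
Tns4 before the gene start: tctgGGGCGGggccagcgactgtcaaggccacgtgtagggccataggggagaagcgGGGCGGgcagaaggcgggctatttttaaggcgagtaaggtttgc
All 4 of these stretches hold a GC-box, 2 in Tns1, 1 in Tns2, 1 in Tns3 and 2 in Tns4, as do 23.9% of the stretches of this length before the 21757 protein-coding genes. The 100 bases before the canonical starts of Tns1 and Tns2, which lie inside the genes, hold none. The stretches of Tns1, Tns2 and Tns3 printed above lie inside an accessible interval while that of Tns4 does not.

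Accessible chromatin filled nearly all of Tns1, Tns2 and Tns3 and little of Tns4. Tns1 (ENSMUSG00000055322.18, chr1:73949390-74163731, minus strand) spans 214342 bp, and 94.6% of its region lay inside 23 intervals. Tns2 (ENSMUSG00000037003.18, chr15:102008848-102024837, plus strand) spans 15990 bp, and 98.9% of its region lay inside 2 intervals. Tns3 (ENSMUSG00000020422.16, chr11:8381631-8614681, minus strand) spans 233051 bp, and 88.2% of its region lay inside 64 intervals. Tns4 (ENSMUSG00000017607.11, chr11:98956504-98980144, minus strand) spans 23641 bp, and 5.10% of its region lay inside 3 intervals. The order of the covered shares was thus Tns2, Tns1, Tns3 and, far below them, Tns4. In bulk tissue, strong opening in fewer cells and weak opening in many cannot be told apart.

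**Figure D1:**
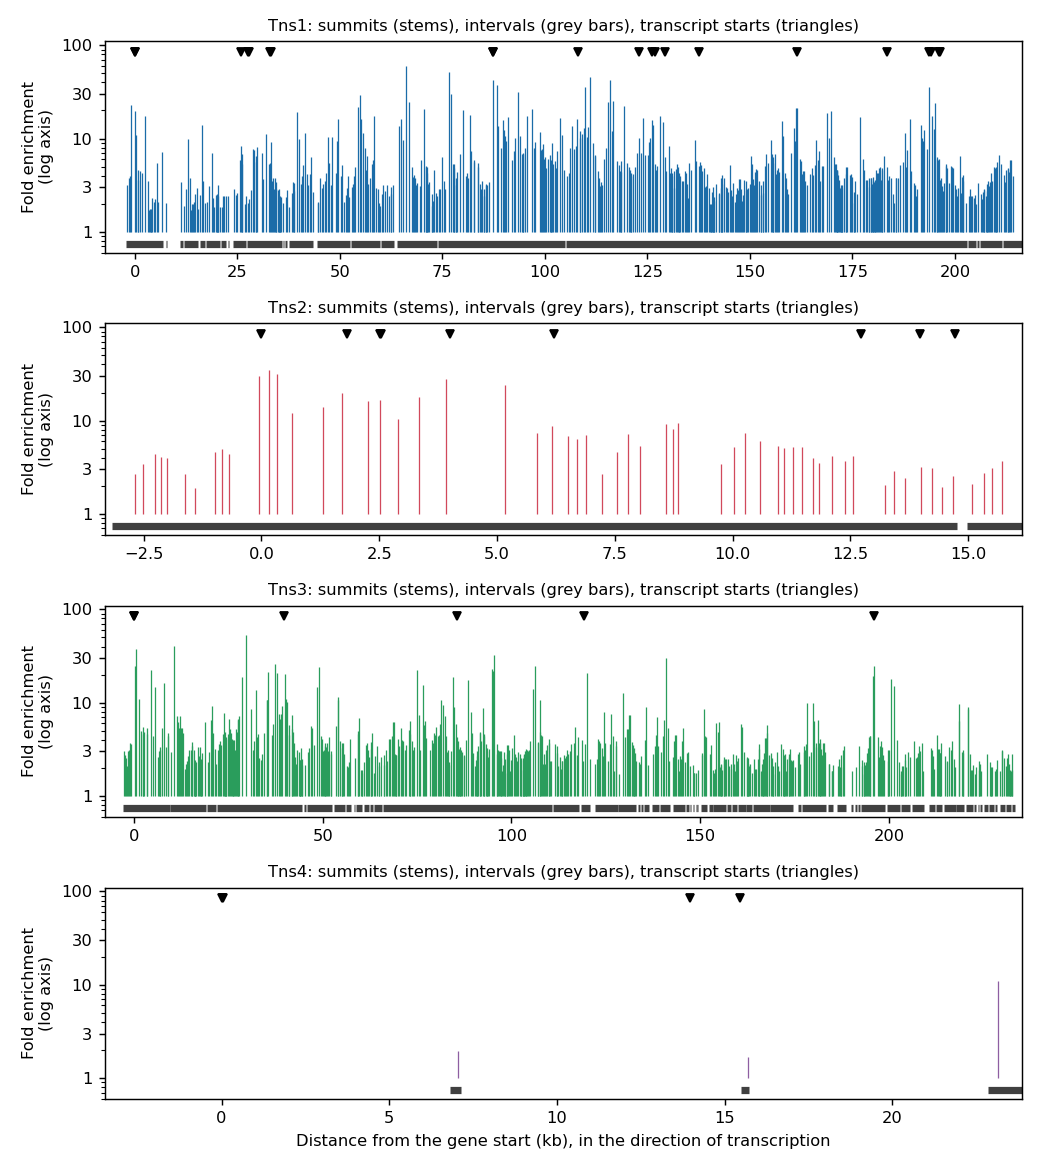
Fold enrichment of every summit (stems, log axis) against its distance from the gene start in kb, 1 panel per tensin gene, with the accessible intervals as grey bars and the annotated transcript starts as triangles, from 1 pooled peak call. Summits fill Tns1, Tns2 and Tns3 from end to end, with 582, 58 and 632 summits, while Tns4 holds 3.

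Among all 21757 protein-coding genes, 6.53% had a region that was at least 85% covered, and 3 of the 4 tensins did. Counting only intervals of at least 5-fold, Tns3 came to 68.9%, and with 10 kb on either side of the gene Tns2 came to 75.5%, so each then missed that share. Long genes rarely reached 85% cover. Of the 5252 genes of at least 50 kb, 26 (0.495%) reached that share, Tns1 and Tns3 among them, with a median of 10.6%. Tns1 stood at rank 6 and Tns3 at rank 22 of these genes. The family was picked for wide intervals in Tns1 and Tns3, so these shares and ranks are not free of that choice. Among the 1015 genes of at least 200 kb, a length chosen after the values were seen, the median was 5.18% and 3 genes reached 85%. They were Tns1, then Zmiz1 at 88.4%, then Tns3. Tns2 stood at rank 257 of the 16505 shorter genes, whose median was 21.0%, and Tns4 at rank 11743. The genes next to a tensin in covered share were Shb at 94.7% and Ahdc1 at 93.5% for Tns1, Fxyd2 and Carhsp1, both at 98.9%, for Tns2, Zmiz1 and Ell, at 86.8%, for Tns3, and Plaat3 and Cfap206, both at 5.10%, for Tns4, a likeness in 1 pooled call only.

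**Figure D2:**
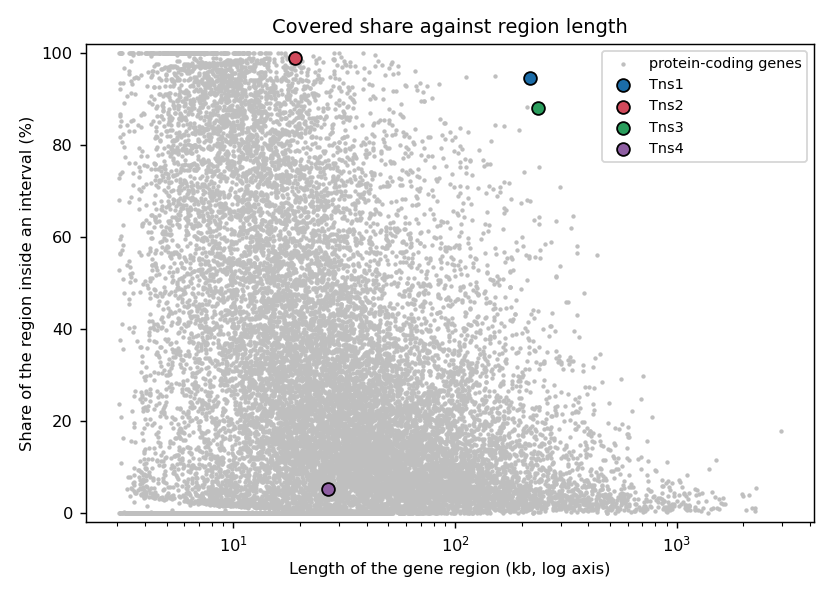
Share of each gene region inside an accessible interval (%) against the length of the region (kb, log axis), for all protein-coding genes (grey points) and the 4 tensins (coloured points). Tns1 at 94.6% and Tns3 at 88.2% sit above nearly all genes of their length, Tns2 at 98.9% lies among many short genes, and Tns4 at 5.10% lies in the dense lower part.

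The tallest summits of Tns1, Tns2 and Tns3 ranked lower among genes than their covered shares did. The rank in covered share is not free of the choice of the family for wide intervals. The strongest interval of Tns1 reached 60.5-fold over the background, a height that 88.3% of coding genes stayed below, and that of Tns3 reached 52.7-fold, with 82.2% of genes below. Tns2 reached 34.6-fold, with 63.0% of genes below, and Tns4 10.9-fold, with 34.1% below. The median over coding genes was 24.3-fold. Of the 92 intervals, 42 reached 5-fold at their highest summit, against 24.5% of all intervals in the list. By gene these were 14 of 23 at Tns1, 2 of 2 at Tns2, 25 of 64 at Tns3 and 1 of 3 at Tns4. The median interval was 8.25-fold at Tns1 and 3.57-fold at Tns3, against 2.55-fold over the list. These contrasts are not free of the choice of the family, which was picked for wide intervals. A wide interval holds more summits from which its strongest is taken. Only 19 of the 92 held a single summit, against 53.4% of the list. Height apart from width was not tested here, and the shares per summit follow below.

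Tns1 and Tns3 were covered to a like extent and differed in how the cover was built. Tns1 held 213 summits of at least 5-fold, or 9.80 per 10 kb, and Tns3 held 114, or 4.83 per 10 kb. Over all genes of at least 50 kb the median was 0.565 per 10 kb. Tns2 had the densest set, with 29 such summits or 15.3 per 10 kb, and Tns4 held 1, or 0.375 per 10 kb. As a share of their summits, 36.6% in Tns1, 50% in Tns2 and 18.0% in Tns3 reached 5-fold, against 18.4% of all summits. Under 3-fold lay 282 of 632 summits in Tns3, or 44.6%, and 142 of 582 in Tns1, or 24.4%, against 60.8% over the list. The median summit was 4.22-fold in Tns1, 5.01-fold in Tns2, 3.08-fold in Tns3 and 2.62-fold over the list.

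**Figure D3:**
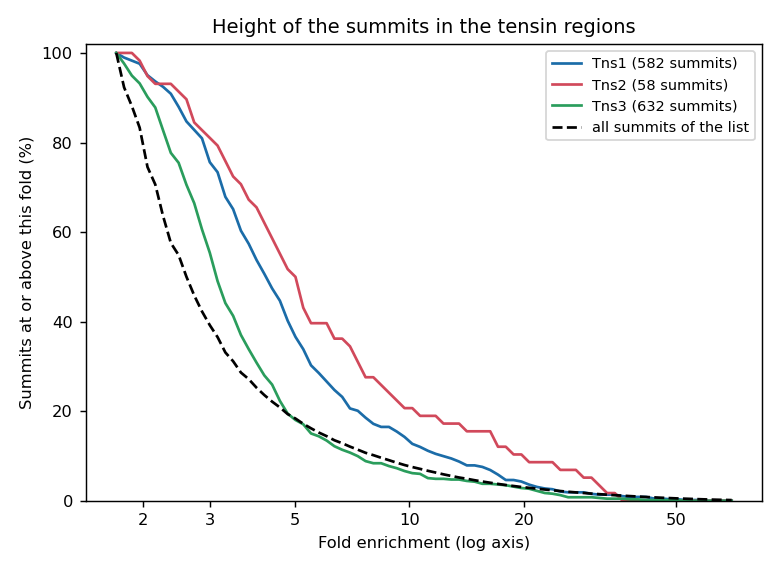
Share of summits (%) at or above each fold enrichment (log axis) for Tns1, Tns2, Tns3 and all summits of the list (dashed). At 5-fold the lines stand at 36.6%, 50%, 18.0% and 18.4%, so the Tns3 line meets that of the whole list there while the lines of Tns1 and Tns2 lie above it, and among the tallest summits they fall to or below it.

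The gaps between intervals were short in the covered genes. The uncovered part of the Tns1 region came to 11761 bp in 23 gaps with a median of 306 bp, and its longest gap, of 2961 bp, lay in the first intron of the transcripts that begin at the gene start. In Tns3 there were 64 gaps with a median of 364.5 bp, the longest of 1528 bp. Tns2 had a single gap of 217 bp near its 3′ end. In Tns4 the longest gap was 9813 bp, and it ran from 3 kb upstream of the gene start into the gene.

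The widest interval of the list, at chr1:73960747-74058660, ran over 97914 bp of Tns1, 45.1% of its region, and held 287 summits and 12 of the gene's 21 annotated starts. Its summits were not of 1 height. The quartiles were 3.40-fold and 6.22-fold around a median of 4.45-fold, 107 summits reached 5-fold, 40 reached 10-fold, and 46 stayed under 3-fold, the lowest at 1.90-fold. From the first to the last summit of at least 5-fold the distance was 94936 bp, but the longest run of such summits with gaps of no more than 1 kb came to 6887 bp. The 5 highest summits were at 74052648, 74047935, 74053906 and 74047036, in intron 4, with 46.0-fold, 42.0-fold, 36.1-fold and 25.1-fold, and at 73970035, in intron 22, with 35.6-fold. That last summit lies 65 bp upstream of an annotated start. The interval as drawn by the peak caller is therefore a chain of tall and low summits and not 1 even block.

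Introns 3 and 4 of Tns1 held its tallest summits. Intron 3 is 52422 bp long and held 127 summits, 68 of them of at least 5-fold. Its highest, 60.5-fold with a −log10 q of 1276, lay in the interval chr1:74090037-74099851. The next interval, chr1:74058858-74089875, is 31018 bp wide, the 19th widest of the list, and 50 of its 74 summits reached 5-fold, the highest being 51.7-fold at 74087035. Intron 4 held 33 summits, 22 of them of at least 5-fold. The fourth strongest interval, chr1:74103873-74110948, had its highest summit of 29.6-fold in intron 2. Farther down the gene, intron 6 was the densest, with 12 of 13 summits at 5-fold or more, and intron 22 held 16 of 22, while intron 19 held 2 of 38. At the 3′ end of the gene, an interval of 5348 bp reached 6.68-fold in the 3′ UTR, and another, of 11598 bp, ran past the gene end with its highest summit of 9.17-fold outside the region. Accessible chromatin thus ran through Tns1 at uneven height.

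At the gene start of Tns1 the interval chr1:74156841-74165892 had its highest summit, of 22.7-fold, 867 bp upstream of the start. This place is shared with Rufy4, the neighbour on the plus strand, whose gene start lies 964 bp from that of Tns1. The summit, at 74164598, lies closer to the Rufy4 start, at 74164695, than to the Tns1 start, at 74163731. It cannot be assigned to either gene from these data. A second summit of 19.7-fold lay 9 bp upstream of the Tns1 gene start. The start of the canonical transcript, 32892 bp downstream at 74130839, had 9.23-fold as its highest value within 500 bp. A higher value was seen at an internal start at 74076292, where a summit of 42.9-fold lay 51 bp upstream. The nearest coding gene on the other side of Tns1, Tnp1, lies 894182 bp away.

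Tns3 had its tallest summits in the 5′ part. The interval chr11:8570043-8592710, 22668 bp wide, reached 52.7-fold at 8584930 with a −log10 q of 1065, and chr11:8595624-8605055 reached 40.8-fold at 8604172, both in intron 1. The interval over the gene start, chr11:8605205-8617579, reached 37.3-fold at 8614104, 577 bp inside the gene. Intron 1, 48627 bp long, held 48 of the gene's 114 summits of at least 5-fold, or 9.87 per 10 kb. Intron 3 held 18, and intron 16, at 24861 bp, held 6, or 2.41 per 10 kb. The widest Tns3 interval, chr11:8504045-8548583, was the 6th widest of the list with 44539 bp and 142 summits, of which 27 reached 5-fold and 44 stayed under 3-fold. Its median summit was 3.31-fold and its longest run of 5-fold summits came to 2257 bp. The 5 highest summits in it were 32.8-fold, 23.1-fold and 21.9-fold, close together in intron 4 at 8519392, 8519908 and 8519607, 24.7-fold in the same intron, and 22.3-fold in intron 3. The fifth strongest interval of the gene, chr11:8472689-8475310, reached 30.1-fold in intron 13. Toward the 3′ end the heights were uneven. An interval of 6260 bp reached 24.9-fold in intron 20, and others reached 9.62-fold in intron 24 and 9.10-fold in intron 27. The 3 intervals whose highest summits lie in the last exon, between 924 and 1439 bp wide, reached 2.82-fold, 2.82-fold and 3.08-fold.

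Just beyond the region of Tns3, 403 bp farther upstream, an interval at chr11:8618084-8621055 reached 15.3-fold, and it is not counted among the members. The other intervals next to the region ends were low, between 2.16-fold and 3.14-fold at Tns1, Tns2 and Tns3 and at 2.62-fold and 2.42-fold at Tns4. The nearest coding gene to Tns3, Pkd1l1, lay 162027 bp away, and Igfbp3, on the other side, 1217452 bp away.

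Tns2 was a short gene inside 1 wide interval. The interval chr15:102005676-102023611, 17936 bp, held 55 summits, all 9 annotated starts and 93.5% of the region. Its 3 highest summits stood together at the gene start, with 34.6-fold 170 bp downstream, 31.6-fold 332 bp downstream and 30.1-fold 58 bp upstream of it. The next were 28.2-fold at 102012757 and 24.1-fold at 102014015, 3909 and 5167 bp from the gene start in introns 1 and 3. Farther downstream no summit of this gene reached 10-fold, as the map of summits shows. The second interval, chr15:102023829-102029532, had its highest summit of 6.55-fold downstream of Tns2, in Spryd3, a gene on the other strand that overlaps the 3′ end of Tns2. The other neighbours, Eif4b and Igfbp6, lie 3234 bp and 27860 bp away.

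Tns4 had no accessible interval at its start. The nearest summit lay 7059 bp into the gene, in intron 2, with 1.96-fold, and a second one in intron 8 had 1.70-fold and a −log10 q of 1.37. The highest Tns4 summit, 10.9-fold with a −log10 q of 110, lay in the 3′ UTR in exon 13, in the interval chr11:98956273-98957300. Its neighbours Igfbp4, at 11286 bp, and Ccr7, at 54878 bp, do not overlap the region.

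Most of the tallest summits of the family lay away from the annotated starts of their own gene. Of the 46 summits of at least 20-fold, 43 lay in introns, and 30 were farther than 1 kb from any start of their own gene, 16 of 23 in Tns1, 13 of 18 in Tns3 and 1 of 5 in Tns2. Of 134 summits of at least 10-fold, 42 lay within 1 kb of a start. Shares over the whole list at 10-fold and 20-fold are not given here, so these counts have no background beside them. Introns held 539 of 582 summits in Tns1, 599 of 632 in Tns3 and 29 of 58 in Tns2. Exons of the canonical transcript make up 5.65% of the span of that transcript in Tns1, 3.28% in Tns3 and 35.4% in Tns2. Counting starts of any gene, 75.9% of the tensin summits of at least 5-fold lay farther than 1 kb from a start, against 59.5% of all such summits.

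GENCODE lists 40 distinct transcript starts for the 4 genes. Of these, 36 lay inside an interval, 21 of 21 for Tns1, 9 of 9 for Tns2, 6 of 6 for Tns3 and 0 of 4 for Tns4. In genes so fully covered this count is nearly fixed by the cover, so summits near the starts say more. A summit of at least 5-fold lay within 500 bp of 29 starts, 18 in Tns1, 6 in Tns2 and 5 in Tns3, and any summit lay within 100 bp of 24. Starts deep inside the genes were among the highest. In Tns1, summits of 35.6-fold, 21.3-fold and 16.0-fold lay 65, 36 and 49 bp upstream of the starts at 73969970, 74002202 and 74037627. In Tns3, a summit of 24.9-fold lay 38 bp upstream of the start at 8418675, which is 196006 bp downstream of the gene start, and 1 of 20.1-fold lay 109 bp downstream of the start at 8574887. None of the starts at 73969970, 74037627 and 8418675 belongs to a transcript annotated as protein-coding. At the other end of the scale, the Tns1 starts at 74135984 and 74136027 had no more than 2.23-fold within 500 bp, and the Tns2 starts at 102022834 and 102023574, near its 3′ end, no more than 3.21-fold. At the gene level, 64.3% of coding genes had an interval of at least 5-fold within 1 kb of the gene start, and Tns1, Tns2 and Tns3 were among them.

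Base composition, which played no part in the choice of the genes, differed between the starts. Within 250 bases of the gene start the GC content was 76.8% in Tns1 and 77.0% in Tns2, higher than at 99.1% of coding genes in both cases, and 65.1% in Tns3. In Tns4 it was 55.7%, close to the median of 54.9% over coding genes. The ratio of observed to expected CpG, a measure of CpG islands, was 0.872, 0.875 and 0.762 in Tns1, Tns2 and Tns3 and 0.309 in Tns4, with a median of 0.509 over coding genes. The canonical starts of Tns1 and Tns2 lie inside the genes, and their ratios of 0.155 and 0.116 were lower than that of Tns4, yet they lay in open chromatin, with 9.23-fold and 16.5-fold within 500 bp.

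**Figure D4:**
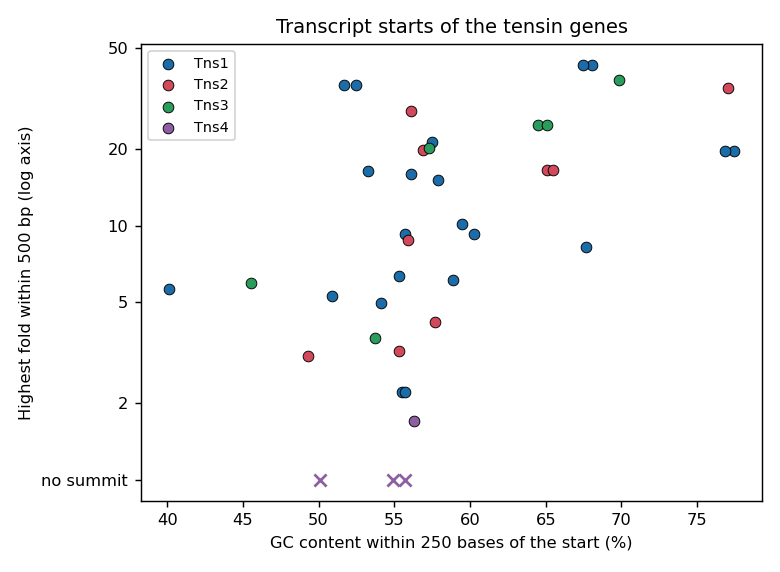
Highest fold enrichment within 500 bp of each annotated transcript start (log axis) against the GC content within 250 bases of it (%), 1 point per start, with a cross at the bottom for a start with no summit that near. Starts of Tns1 range in GC content from 40.1% to 77.4%. Of these 21 starts, 18 have a summit of at least 5-fold within 500 bp, among them those at both ends of the range. The Tns4 starts, between 50.1% and 56.3%, overlap that range and sit at the bottom.

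Short sequence motifs were counted in windows of 100 bases to either side of the highest summit of each interval, as exact matches on both strands. At least 1 of 11 motifs was found in 27 of 92 tensin windows, or 29.3% (95% Wilson interval 21.0 to 39.3, counting error only), and in 28.8% of all windows. AP-1 (TGANTCA), the site of Fos and Jun proteins, was found in 13 windows (14.1% against 12.4%), the GC-box (GGGCGG) of Sp1-type factors in 7 (7.61% against 8.17%), and the TEAD site ACATTCC, where YAP and TAZ act, in 5 (5.43% against 4.39%). The CArG box of the serum response factor was found in 2 (2.17% against 0.890%), and the PPAR-type DR1 (AGGTCAAAG) and the ETS site (CCGGAAG) in 1 each, or 1.09%, against 0.559% and 1.89%. The sites named HNF1, CTCF and GRE and the letters CAAAGTCCA for HNF4 and TCAAGGTCA for ERR were found in 0 of 92, which allows a share of up to 3.26% if 0 is read as at most 3 counts and of 4.01% by the Wilson limit, and over the list they were found in 0.195%, 1.86%, 0.167%, 0.887% and 0.682%. In these windows, 1 per interval, the shares at the tensin intervals and over the list were thus close for the motifs that had matches enough to compare.

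With every summit of at least 5-fold as a window, a set chosen after the data were seen, the tensin genes gave 357 windows. The GC-box was found in 10.9% of them against 17.6% of 137677 windows over the list. Away from annotated starts, by more than 1 kb, the shares were 6.64% and 7.01%, and within 1 kb 24.4% and 33.0%. AP-1 was found in 10.4% against 13.3%, with 22 of 213 windows in Tns1, 14 of 114 in Tns3 and 1 of 29 in Tns2. By distance, AP-1 was found in 10.3% against 17.0% of the windows farther than 1 kb from a start and in 10.5% against 7.86% of those nearer. Some motifs had larger shares at the tensin summits than over the list, with 5.88% against 4.65% for TEAD, 1.40% against 0.575% for the PPAR-type DR1, from 5 windows, and 1.12% against 0.192% for GRE, from 4. CTCF was found in 0 of 357, which allows up to 0.840% by 3 counts and 1.06% by the Wilson limit, against 2.88% over the list. These are counts of letters in windows, neighbouring summits of 1 gene share their surroundings, and binding was not measured.

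The adhesion genes that work with tensins were mostly open at their starts but seldom covered as Tns1 to Tns3 were. Of a list of 43 such genes, 37 had an interval of at least 5-fold within 1 kb of the gene start, among them 11 of 13 integrins, 14 of 15 linkers and activators and 5 of 6 kinases and adaptors. Over all coding genes the share was 64.3%. Their regions had a median covered share of 38.6%, against 16.7% over all coding genes, and 4 of 43 reached 85%, as did 6.53% of all coding genes. The largest shares were those of Ilk, the integrin-linked pseudokinase, with 98.4%, Bcar1, the adaptor p130Cas, with 96.8%, and Pxn, paxillin, with 95.4%. The smallest were those of Itga8, an integrin of mesangial cells, with 3.20%, Tln2, a talin, with 6.78%, and Ptk2, the focal adhesion kinase, with 11.1%. Among the 27 genes of the list that are at least 50 kb long, the median was 29.7% and 1 reached 85%, against 0.495% of all genes of that length. The tensin family was picked for wide intervals, so its contrast in cover with this list is not free of that choice.

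The markers of kidney cell types, taken by the same rule at their gene starts, gave 5 of 5 genes of the proximal tubule, 3 of 3 of the thick limb and distal tubule, 1 of 2 of the collecting duct, 1 of 3 of endothelium, 1 of 2 of immune cells and 2 of 2 of stroma. Of 5 genes of other organs 1, Gfap, passed with 8.05-fold. In all 14 of the 24 markers passed, a share near the 64.3% over all coding genes. Which of these cells gave the signal at the tensin genes was not tested. Intervals of at least 20 kb made up 0.0368% of the list, 103 in all, and 4 of them lay at tensin genes, which is the property that the family was picked for.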

How the data were processed

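ATAC-seq libraries of kidney cortex nuclei were grouped by the genotype in their labels (3 WT, 3 Acly cKO). By their methods, reads were trimmed by the authors (fastp) and aligned to mm39 (Bowtie2 2.3.4.3). The authors then removed duplicates, kept unique alignments, called peaks with MACS3 3.0.0 at q 0.05 with summits, and removed blacklisted and non-standard sequence with BEDTools 2.29.1. A correction for the transposase offset and the depth of the pool are not given in the sources used here. The deposited list gives, by the authors' caller, the fold enrichment of each summit (a linear ratio over the background), its −log10 q, a score derived from that q and the summit offset. The score was not used. The deposited summit list before filtering holds the same −log10 q; 874 summits were removed by the filter, 0 of them at tensin genes.

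Rows sharing chromosome, start and end were taken as 1 interval and given the fold and q of its summit with the lowest q. Genes, starts and exons came from GENCODE M39 on GRCm39, positions are written from 1, and canonical is the Ensembl canonical transcript. The 4 members, the adhesion, marker and motif lists and the genes named were chosen with earlier results of these data known. The named genes are the members, their neighbours, the genes next to them in covered share and the 3 largest and smallest of the adhesion list; the 5 strongest intervals of a gene, and of its widest interval the 5 highest summits, are given. Wilson intervals are at 95%. A few marker, group and sequence results are not reported here. No test was run, since no value belongs to a single library. The scripts were tested on simulated data. Python 3.11.15, numpy 2.4.6, pandas 2.3.3, scipy 1.17.1 and matplotlib 3.10.9 were used.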

Additional observations from a re-analysis of the deposited data

How the results depend on the processing

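Values come from 1 pooled call, so depth per library, replicate error and genotype effects are unknown, and no replicate could be left out. No paired analysis was possible because no column belongs to a single library and no test was run. The 92 intervals became 42 at a fold of at least 5 and 1322 with summit rows counted, and lay between 74 and 113 under the other thresholds, regions and overlaps. The covered share of the 4 regions together, 86.9%, became 85.3% at q under 1e-05, 75.9% at a fold of at least 5, 82.7% with 10 kb on either side and 87.4% for the gene body alone. At a fold of at least 5 the share was 90.4% in Tns1, 98.9% in Tns2 and 68.9% in Tns3, so Tns3 is then under 85%. This setting keeps or drops whole intervals by their highest summit, so a wide interval counts in full for 1 tall summit. These shares are therefore not the part of a gene that reaches 5-fold. With 10 kb on either side Tns2 came to 75.5%. Of the 40 starts, 36 lay in an interval, and 20 of the 21 starts of protein-coding transcripts. The width of 97914 bp became 94936 bp from the first to the last summit of at least 5-fold and 6887 bp as the longest run of them. The share of windows with a motif was 29.3%, against 28.8% over the list. It became 20.7% against 19.7% with 50 bases to either side in place of 100, and 39.1% against 40.1% with 200. At q under 1e-05 the tensin share was lower than that of the list, 31.1% against 37.5%. With summits of at least 5-fold it was also lower, 30.0% against 40.1%. The count of 37 open adhesion genes became 33 at a fold of at least 10, 38 within 3 kb of the gene start and 42 with any interval of the list. The share over all coding genes, 64.3%, then became 57.4%, 68.0% and 74.3%. Among the values for single genes and motifs, 78 stayed within their limits and 33 moved. The wider set of windows at 5-fold summits was chosen after seeing the data. The causes were not tested.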
